A study of Mus musculus with 15 samples.

Results

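Toll-like receptors are pattern recognition receptors with which macrophages, monocytes, neutrophils and microglia, the resident macrophages of the brain, detect microbial and damaged-cell molecules. The 10 receptor genes examined here were chosen by name, as members of the family. They are Tlr1, Tlr2, Tlr4, Tlr5 and Tlr6, whose proteins act at the cell surface, and Tlr3, Tlr7, Tlr8, Tlr9 and Tlr13, whose proteins sense nucleic acids in endosomes. They are 10 of the 38924 genes in the tables, and all 10 passed the filter of at least 1 cpm (counts scaled to the size of the library) in at least 2 libraries that left 14967 genes. The lowest value of any of the 10 in any of the 15 libraries was 1.12 cpm, for Tlr8.

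The RNA came from CD11b+ brain cells of 12-month-old wild type male C57BL/6J mice, which were sorted by their surface level of CD45 into CD45hi and CD45lo cells. Mice stayed on a chow diet (CD) or received a western diet (WD) from 2 months of age, and no group carried a transgene. The groups hold 4 CD CD45hi, 4 CD CD45lo, 3 WD CD45hi and 4 WD CD45lo libraries of 11951412 to 17912272 counts each. Mice were perfused before the brain was taken, the olfactory bulb and cerebellum were removed, and the gate is a level of CD45, not a cell type. The study describes its deposited counts as given for each animal, and which CD45hi and CD45lo libraries came from the same animal is not given in the sources used here. Each CD45hi library shares the number that starts its file name with a CD45lo library of its diet, and what this number marks is not given. The tests between the fractions treat all libraries as independent, and fits with this number as a block are given at the end.

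Surface receptors recognise lipids and proteins of microbes. TLR2 pairs with TLR1 or TLR6 and binds lipopeptides, TLR4 binds lipopolysaccharide together with MD-2 and CD14, and TLR5 binds flagellin. Of the endosomal receptors, TLR3 binds double-stranded RNA, and TLR7 and human TLR8 bind single-stranded RNA and its breakdown products. TLR9 binds unmethylated CpG DNA, and TLR13 of the mouse binds a stretch of bacterial ribosomal RNA. All but TLR3 signal through the adaptor MyD88, TLR3 signals through TRIF, and TLR4 uses both. The signal activates NF-kappaB and interferon regulatory factors, which induce cytokines, chemokines and their own inhibitors.

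The sorted fractions differed in markers of other cells, and these values stand beside each CD45 comparison that follows. The summed level of 9 microglia markers (P2ry12, Tmem119, Sall1 and others) was 13590 to 17500 cpm over the CD45lo libraries and 6420 to 7783 cpm over the CD45hi libraries. Microglia markers were therefore abundant in both gates. The 6 border-associated macrophage markers summed to 681 to 2499 cpm in CD45hi against 56.5 to 215 cpm in CD45lo libraries, the 8 neutrophil markers to 1409 to 3544 against 578 to 855 cpm, the 6 classical monocyte markers to 515 to 1048 against 46.4 to 166 cpm, and the 6 patrolling monocyte markers to 296 to 834 against 3.26 to 16.6 cpm. Most of the neutrophil sum in CD45lo cells was Csf3r, at 465 to 622 cpm on the CD and 555.5 to 744.5 cpm on the WD. In WD CD45hi cells Csf3r was no higher, at 649 ± 59.2 against 684 ± 87.9 cpm. Ly6g was at 0 to 7.34 cpm in CD45hi and 0 to 1.63 cpm in CD45lo libraries. Of the 8 neutrophil markers, 6 were called higher in CD45hi cells on each diet (4.01% of all genes tested on the WD and 3.39% on the CD). A large part of the classical monocyte sum in CD45lo cells was Chil3. On the CD it overlapped between the fractions, at 6.86 to 312 cpm in CD45hi and 45.6 to 109 cpm in CD45lo libraries. On the WD it did not, at 81.8 to 146 against 16.5 to 36.2 cpm. The 8 dendritic cell markers summed to 122 to 299 against 19.2 to 38.5 cpm, the 9 lymphocyte markers to 11.0 to 94.0 against 0 to 0.623 cpm, and the 5 markers of neurons, glia and vessels to 1.57 to 16.1 against 1.97 to 5.92 cpm. Of the defining markers, Klk1 was at 0 in every library of all 4 groups, Ccr7 in all CD45lo libraries, the lymphocyte markers Cd3e and Ncr1 in all CD45lo libraries, and the patrolling monocyte marker Cd300e in those of WD-fed mice. In these bulk libraries fewer cells of a type and less RNA per cell cannot be told apart. The first CD45hi library of the WD group and the fourth of the CD group lay apart from the rest in a principal component analysis (scores of −134.7 and 93 on a second component of 13.2% of the variance, against −4.5 to 21.5 in the others), and results are given without these 2 libraries where they matter. Leaving out both was an alternative chosen after the data were seen, so calls gained or lost with it were not planned tests.

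Within CD45lo cells the endosomal receptors Tlr7 and Tlr13 had the highest levels per length and Tlr8 the lowest. Levels of different genes are compared here in TPM, the share of a library's transcripts after division by gene length, and only within a group. In CD CD45lo cells Tlr7 was at 367 ± 35.0 TPM (mean ± SD, n = 4), Tlr13 at 218 ± 29.8 TPM and Tlr9 at 108 ± 13.3 TPM. The libraries of Tlr7 did not overlap those of Tlr13, nor those of Tlr13 the libraries of Tlr9. Tlr4, at 107 ± 10.2 TPM, and Tlr3, at 105 ± 8.08 TPM, overlapped Tlr9 and each other. Tlr2, at 68.0 ± 8.33 TPM, lay below all libraries of these 3 genes, and Tlr1, at 64.7 ± 20.2 TPM, overlapped Tlr2 and reached up to 91.6 TPM in 1 library, above the lowest library of Tlr9 at 88.6 TPM. A gap separated Tlr6 at 25.1 ± 4.54 and Tlr5 at 22.4 ± 6.14 TPM, which overlapped each other, and Tlr8 stood below them at 5.01 ± 2.65 TPM. In WD CD45lo cells the same 3 genes led, with Tlr7 at 357 ± 39.4 TPM, and Tlr8 was again last at 2.98 ± 3.13 TPM, below every library of the next gene.

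In CD45hi cells the order was less separated. Tlr7 was first again in the CD group, at 198 ± 41.4 TPM against 121 ± 21.6 TPM for Tlr13 (n = 4), and these did not overlap. From Tlr13 downwards, through Tlr2, Tlr4, Tlr8, Tlr9, Tlr1, Tlr3, Tlr5 and Tlr6 at 13.4 ± 7.13 TPM, the libraries of each gene overlapped those of the next. In the WD group Tlr7 led at 194 ± 39.4 TPM (n = 3), Tlr2 was second at 127 ± 32.4 TPM and overlapped it, and the single gap lay between Tlr3 at 33.7 ± 4.89 TPM and Tlr6 at 20.6 ± 5.53 TPM. Tlr8 held 3.91% to 13.7% of the summed TPM of the 10 genes in CD45hi libraries and 0.0716% to 0.790% in CD45lo libraries. The 5 endosomal genes together held 69.8% to 75.9% of that sum in CD45lo and 56.1% to 73.4% in CD45hi libraries.

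TPM also depend on the effective length that RSEM sets in each library from the isoforms it assigns reads to. That of Tlr8 ran from 457 to 3263 bases over the libraries, a ratio of 7.14, against ratios of 2.2 for Tlr4, 1.40 for Tlr7 and Tlr13, and at most 1.06 for the other members. Levels were therefore also set on a fixed length, as normalized cpm per 1000 bases of exon, an alternative chosen after the data were seen. On this scale Tlr7, Tlr13 and Tlr9 again led in CD45lo cells of both diets, at 121 ± 16.2, 88.7 ± 10.1 and 54.1 ± 6.79 cpm per 1000 bases in the CD group, and Tlr8 was last at 0.720 ± 0.4655. Tlr4 moved from rank 4 in TPM to rank 7 in that group, at 24.5 ± 2.58 cpm per 1000 bases. In CD CD45hi cells Tlr7, at 83.4 to 115 cpm per 1000 bases, overlapped Tlr13, at 60.7 to 93.9, on this scale, so that their separation in TPM was not seen with a fixed length.

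**Figure D1:**
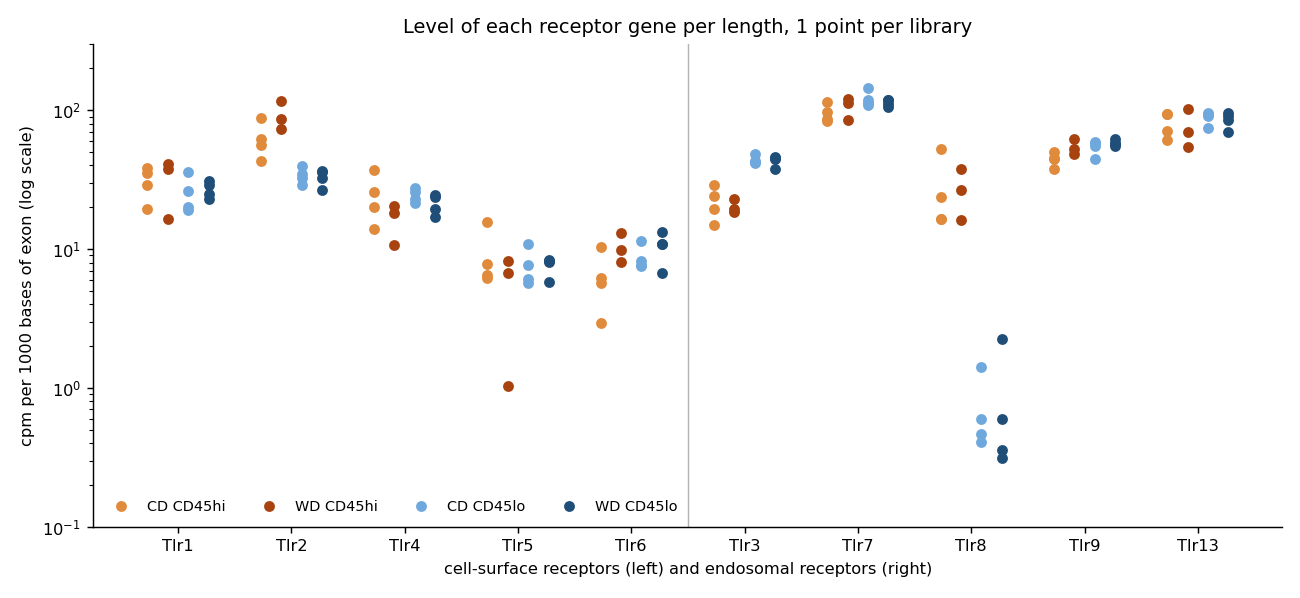
Level of each receptor gene in normalized cpm per 1000 bases of exon (y axis, log scale), 1 point per library and 1 colour per group, with the cell-surface receptors on the left and the endosomal receptors on the right of the grey line. Tlr7 has the highest mean in all 4 groups, and the CD45lo points of Tlr8 lie under every other gene's except the single low WD CD45hi library of Tlr5 at 1.04.

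Tlr8 was the member with the largest difference between the fractions. In WD-fed mice it was at 136, 96.3 and 58.4 cpm in the CD45hi libraries and at 1.12, 8.01, 2.14 and 1.29 cpm in the CD45lo libraries. In CD-fed mice it was at 59.3, 85.0, 59.1 and 188 cpm in CD45hi and at 1.47, 1.66, 2.15 and 5.05 cpm in CD45lo cells. Every CD45hi library lay above every CD45lo library on both diets. Tlr8 was 30.9-fold higher in CD45hi cells on the WD (log2 fold change 4.95, SE 0.696, FDR 0.000308) and 37.7-fold higher on the CD (log2 fold change 5.24, SE 0.689, FDR 0.000164; edgeR's quasi-likelihood test against a 1.5-fold threshold, Benjamini-Hochberg adjusted over all genes). The CD45lo values rest on 17 to 108 counts per library, above the 3 counts, or 0.16 to 0.28 cpm, taken as the smallest measurable value. Without the 2 libraries that lay apart, the log2 fold changes were 4.63 on the WD and 4.71 on the CD, both still past the threshold (FDR 0.000926 and 0.000662).

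The CD45hi library with the most Tlr8, the fourth of the CD group, also had the highest neutrophil marker sum of all 7 CD45hi libraries, 3544 cpm, with 1033 cpm of classical monocyte and 438 cpm of patrolling monocyte markers. The highest of the WD group, the first, had 1552 cpm of neutrophil, 541 cpm of classical and 766 cpm of patrolling monocyte markers, and the lowest border-associated macrophage sum, 681 cpm. None of the 8 marker sums was at its group's highest in both of these libraries. Among CD45lo libraries, those with the most Tlr8, the second of the WD and the fourth of the CD group, had the highest classical monocyte sums of their groups (137 and 166 cpm) and the highest patrolling monocyte sums (16.6 and 12.9 cpm). Their border-associated macrophage sums were 123 cpm, just under the WD group's highest of 124 cpm, and 215 cpm, the highest of the CD group. Their neutrophil sums, 639 and 764 cpm, were not the highest of their groups. The part of these markers in the level of Tlr8 was not tested.

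Tlr8 lies on the minus strand of the X chromosome next to Tlr7. In the GENCODE M21 annotation of mm10, Tlr8 spans chrX:167242696-167264329 and Tlr7 chrX:167304929-167330558, with 40599 bases between them. The 250 bases upstream of the Tlr8 start in the RefSeq table (GRCm38.p6, chrX:167264330-167264579, minus strand) are shown because Tlr8 differed most, and they are printed in the direction of transcription.
Tlr8: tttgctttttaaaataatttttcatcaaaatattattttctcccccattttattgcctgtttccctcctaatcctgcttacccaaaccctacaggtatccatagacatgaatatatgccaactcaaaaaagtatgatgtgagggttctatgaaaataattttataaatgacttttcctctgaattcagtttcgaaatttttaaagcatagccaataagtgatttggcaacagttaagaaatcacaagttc
This window held no match to GAGGAAGT (the core of sites of the myeloid factor PU.1, found in 2.44% of the 32851 windows of the table), to an interferon-response type motif of GAAA, any 2 bases and GAAA (2.98%) or to an NF-kappaB type motif of GGGA, any 4 bases and CC (17.6%), each searched on both strands. The RefSeq table had windows for 10 of the 12 Toll-like receptor genes of the mouse measured here, and none for Tlr4 and Tlr7.

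Tlr7, the neighbour of Tlr8 on the X chromosome, differed far less between the fractions. It was at 460, 493 and 346 cpm in the CD45hi and at 481, 433, 456 and 482 cpm in the CD45lo libraries of WD-fed mice. In CD-fed mice it was at 468, 355, 400 and 341 cpm in CD45hi and at 592, 485, 460 and 446 cpm in CD45lo cells. The groups overlapped on both diets, with log2 fold changes of −0.10 (SE 0.157, FDR 1) and −0.34 (SE 0.145, FDR 1). The ratio of Tlr8 to Tlr7 per 1000 bases of exon was 0.144 to 0.627 over the CD45hi and 0.00264 to 0.0211 over the CD45lo libraries.

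Tlr2 was higher in CD45hi cells of WD-fed mice. It was at 222, 259 and 348 cpm in the CD45hi and at 98.1, 108, 110.1 and 80.5 cpm in the CD45lo libraries on the WD. On the CD it was at 188, 264, 169 and 129.6 cpm in CD45hi and at 97.9, 104, 120.4 and 87.9 cpm in CD45lo cells. All CD45hi libraries lay above all CD45lo libraries on both diets. The difference on the WD was 2.79-fold (log2 fold change 1.48, SE 0.228, FDR 0.00518). On the CD the log2 fold change was 0.87 (SE 0.213, FDR 0.269) and did not pass the test against 1.5-fold; against no change it had an FDR of 0.0162. The change of the CD45 difference with diet was not past the threshold either (interaction log2 0.61, SE 0.311, FDR 0.537), so that a call on the WD alone does not show a difference between diets.

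Tlr3 was the single member called lower in CD45hi cells, on the WD. On the WD it was at 119, 101 and 95.8 cpm in CD45hi and at 232, 235, 239 and 197 cpm in CD45lo cells. On the CD it was at 125, 77.0, 149.6 and 101 cpm in CD45hi and at 217, 225, 254 and 221 cpm in CD45lo cells. The libraries of the fractions did not overlap on either diet. The log2 fold change was −1.10 on the WD (2.15-fold lower, SE 0.202, FDR 0.0440) and −1.02 on the CD (SE 0.184, FDR 0.0746), which did not pass the test against 1.5-fold; against no change it had an FDR of 0.00152. The call on the WD was held in 5 of 11 other settings and in 6 of 15 fits that left out 1 library, with a log2 fold change of −1.20 to −1.04 in all of them. It was lost without any 1 of the 4 CD CD45lo libraries, without the second or the third WD CD45hi library, and without the first, the second or the third WD CD45lo library (FDR of up to 0.0975), and Tlr3 was called on the CD without the third CD CD45hi library (log2 fold change −1.18, FDR 0.0143). Microglia markers were lower in the same libraries, with 6 of 9 called lower in CD45hi cells on the WD and 9 of 9 on the CD. Of all genes tested, 1.17% on the WD and 0.588% on the CD were called lower. The part of the microglia markers in the level of Tlr3 was not tested.

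The 250-base RefSeq windows before the RefSeq starts of Tlr2 and Tlr3 held the NF-kappaB type motif on either strand, with 1 match for Tlr2 and 2 for Tlr3, and neither of the other motifs. Of the members that were not called, Tlr5 also held 1 match to it, and Tlr9 and Tlr13 held none of the 3. Tlr1 held 1 match to the PU.1 core and Tlr6 held 2 overlapping matches to the interferon-response type motif. Both genes have a second RefSeq start, and its window held none of the 3 motifs (chr5:64932700-64932949 for Tlr1 and chr5:64960049-64960298 for Tlr6). Each match is shown, for the genes that were called in opposite directions, in capitals with 10 bases on each side in the direction of transcription (GRCm38.p6). It is at chr3:83841761-83841790 for Tlr2, and at chr8:45410572-45410601 and chr8:45410384-45410413 for Tlr3, all on the minus strand.
Tlr2: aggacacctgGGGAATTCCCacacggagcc
Tlr3 far match: agttgtttctGGGAGTTTCCtgcttttgag
Tlr3 near match: ttccccacacGGCCGGTCCCtgttggcccc
These matches end 162 bases (Tlr2), 201 and 13 bases (Tlr3) before the RefSeq start. A match is a description of letters that 17.6% of all windows hold. In GENCODE M21 Tlr2 spans chr3:83836272-83841767, and Tlr3 spans chr8:45395665-45411080. Both Tlr3 stretches therefore lie inside the GENCODE gene, downstream of its start, and the Tlr2 stretch reaches across the GENCODE start. Tlr3 overlaps Gm45542 on the opposite strand, and the kit does not mark strand, so reads from bases that the genes share cannot be assigned by strand; the expected counts of Tlr3 were whole in all 15 libraries.

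As a description of these 2 genes, which already did not overlap between the fractions, the ratio of Tlr2 to Tlr3 per 1000 bases of exon was 0.688 to 0.820 in CD CD45lo and 0.705 to 0.797 in WD CD45lo libraries. It was 1.95 to 5.91 in CD CD45hi and 3.23 to 6.28 in WD CD45hi libraries.

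The other surface receptors did not pass the test between the fractions. Tlr4 was at 59.4, 102 and 113 cpm in the CD45hi and at 108, 132, 135 and 94.1 cpm in the CD45lo libraries of WD-fed mice (log2 fold change −0.36, SE 0.289, FDR 0.882), and in CD-fed mice its 4 CD45hi libraries ran from 76.9 to 207 cpm around CD45lo values of 120.3 to 152 cpm (log2 fold change −0.01, FDR 1). Tlr5 was low and uneven in CD45hi cells, at 4.99, 39.6 and 32.0 cpm on the WD and at 29.7, 31.1, 37.5 and 75.2 cpm on the CD. The low library rests on 53 counts, and both extremes are the 2 libraries that lay apart in the principal component analysis. Tlr5 in CD45lo cells was at 27.3 to 51.8 cpm on the CD and 27.8 to 39.7 cpm on the WD, and its log2 fold changes were −0.51 on the WD and 0.26 on the CD (SE 0.520 and 0.476, FDR 0.813 and 1). Without the 2 libraries that lay apart they were −0.02 on the WD and −0.14 on the CD, where the estimate changed sign.

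Tlr1 and Tlr6, which encode the partners of TLR2, are neighbours on the minus strand of chromosome 5, at chr5:64924679-64933563 and chr5:64952031-64960097, 18467 bases apart. Their expected counts were fractional in all 15 libraries, while those of the other 8 members were whole in all, so RSEM divided shared reads between similar genes and their separate values are uncertain. Tlr1 was at 55.5 to 137 cpm in WD and 64.9 to 127 cpm in CD CD45hi libraries, and at 76.6 to 103 and 64.0 to 120.5 cpm in the CD45lo libraries. Tlr6 was at 30.2 to 48.5 and 10.9 to 38.3 cpm in CD45hi and at 25.1 to 49.5 and 28.3 to 42.8 cpm in CD45lo cells. Neither gene separated the fractions on either diet, with log2 fold changes of 0.25 and 0.26 for Tlr1 and −0.01 and −0.47 for Tlr6 on the WD and the CD (FDR 0.904 to 1).

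Of the endosomal receptors, Tlr9 and Tlr13 also overlapped between the fractions. Tlr9 was at 169, 182 and 216 cpm in CD45hi and 191 to 218 cpm in CD45lo cells on the WD, and at 130.3 to 175 and 154 to 206 cpm on the CD (log2 fold changes −0.09 and −0.29, FDR 1 and 1). Tlr13 was at 298.5, 438 and 232 cpm in CD45hi and 302 to 409 cpm in CD45lo cells on the WD, and at 261 to 404 and 318 to 414 cpm on the CD (log2 fold changes −0.19 and −0.15, FDR 0.992 and 1). A difference too small to pass the 1.5-fold test is not shown to be absent.

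**Figure D2:**
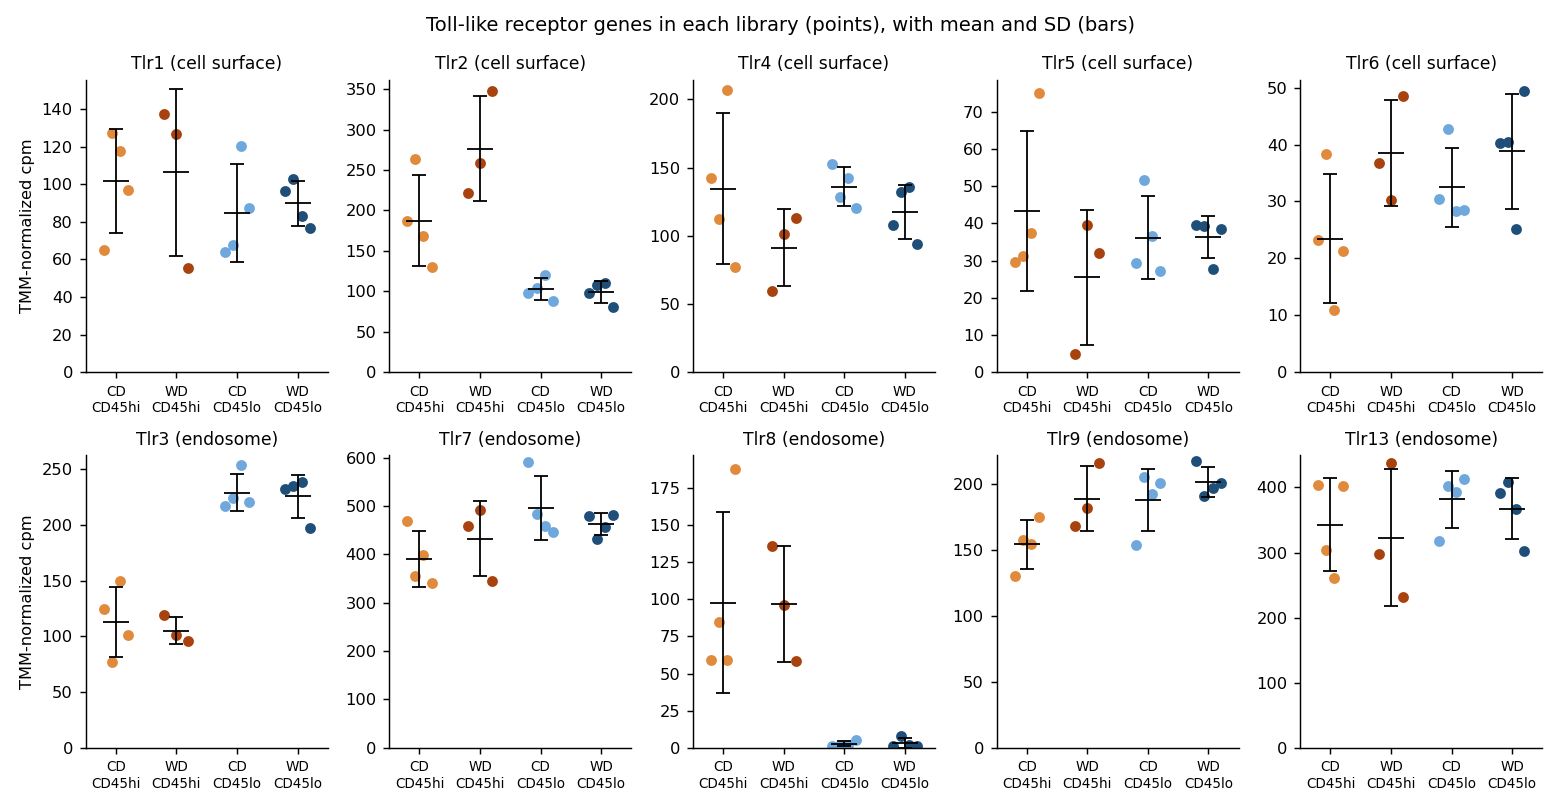
TMM-normalized cpm (y axis, from 0, a separate scale in each panel) of the 10 receptor genes in the 4 groups of diet and CD45 level (x axis), 1 point per library, with the mean and SD of each group as black bars. Tlr8 and Tlr2 sit higher and Tlr3 lower in the CD45hi libraries than in the CD45lo libraries of the same diet without overlap, and the points of the other 7 genes overlap.

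Counted over the 10 members on the WD, 2 were called higher in CD45hi cells (4.01% of the 14967 genes tested were) and 1 lower (1.17% of all genes). On the CD 1 was called higher (3.39% of all genes) and 0 lower (0.588% of all genes), while 3 members had an unadjusted p under 0.05 on each diet (17.9% of all genes on the WD and 14% on the CD). The 1.5-fold limit applied after glmQLFTest called 2 members higher (5.83% of all genes) and 1 lower (1.93%) on the CD. The libraries of the fractions did not overlap for 3 members on the WD, where 23.4% of all genes tested did not, and for the same 3, Tlr2, Tlr3 and Tlr8, on the CD, where 16.5% did not. The median log2 fold change of the members was −0.09 on the WD and −0.08 on the CD, beside 0.00 and 0.04 over all genes tested. Without the 2 libraries that lay apart the counts were again 2 higher (4.62% of all genes) and 1 lower (2.41%) on the WD and 1 higher (3.41%) and 0 lower (0.828%) on the CD.

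The diet comparisons asked whether the WD changed the receptors within a fraction, and no member passed the test in either. In CD45hi cells 0 of 10 members were called (0.254% of all genes tested were), and the estimates ran from −0.76 for Tlr5 to 0.71 for Tlr6. Tlr2 was the single member with an unadjusted p under 0.05 (log2 fold change 0.56, SE 0.227, FDR 0.216 by edgeR), with a WD range of 222 to 348 cpm over a CD range of 129.6 to 264 cpm. In all, 2628 genes (17.6%) had an unadjusted p under 0.05 and 38 were called. DESeq2 called 0 members and 1030 genes in all (7.36% of its genes with an adjusted p), and limma-voom called 0 members and 0.18% of all genes. The negative estimate of Tlr5 turned to 0.13 without the 2 libraries that lay apart, and the others past 0.5 in size, Tlr2, Tlr4 and Tlr6, were then at 0.55, −0.52 and 0.70.

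In CD45lo cells, in which microglia markers were highest, 0 of 10 members were called by edgeR on the WD against the CD (0% of all genes tested were), 0 members had an unadjusted p under 0.05 and 123 of all genes did (0.822%). DESeq2 called 0 members and 4 genes in all (0.0275%). The estimates of the members ran from −0.21 for Tlr4 to 0.27 for Tlr8, with a median of −0.01 and an SE of 0.145 to 0.605. For Tlr7, Tlr9, Tlr13 and Tlr3 the SE was 0.145 to 0.193 and the estimates were −0.10, 0.10, −0.06 and −0.02.

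The interaction of diet and CD45 level, which tests whether the difference between the fractions changed with diet, called 0 of 10 members (0.00668% of all genes tested were called, 1 gene), and 0 members had an unadjusted p under 0.05 against 1515 genes (10.1%). Its estimates ran from −0.77 for Tlr5 to 0.61 for Tlr2. For 0 of the 10 members were the WD and CD libraries without overlap in CD45hi cells (5.77% of all genes tested) and for 0 of 10 in CD45lo cells (2.42%).

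**Figure D3:**
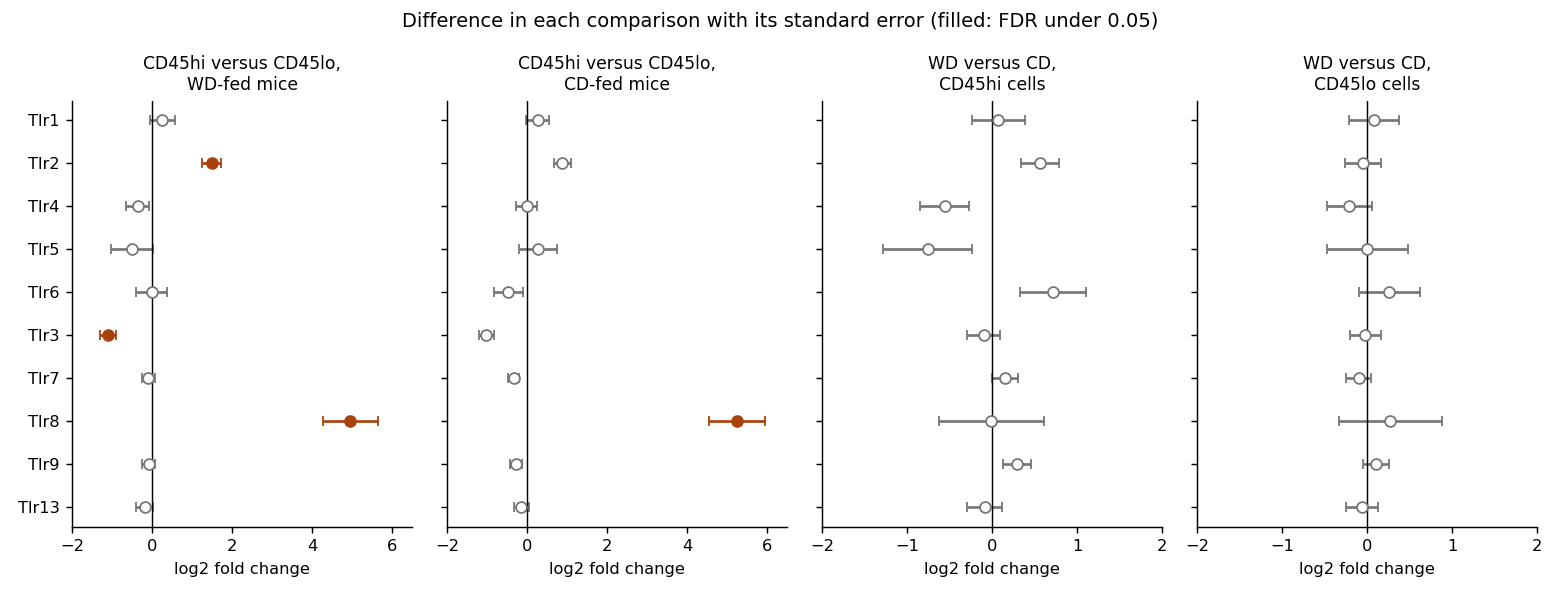
Log2 fold change (x axis) of each receptor gene (y axis, surface receptors above and endosomal receptors below) with its standard error as a bar, in the comparisons of CD45hi with CD45lo cells on each diet and of WD with CD in each fraction. Filled points have an FDR under 0.05, which holds for Tlr2, Tlr3 and Tlr8 on the WD and for Tlr8 on the CD, and all points of the diet comparisons are open. The x axes of the diet panels are narrower.

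Of the Toll-like receptor genes outside the 10, Tlr12, whose product senses profilin of parasites, was at 8.65 to 16.3 cpm in WD CD45hi and 22.1 to 36.5 cpm in WD CD45lo cells (log2 fold change −1.30, SE 0.444, FDR 0.193), and at 5.47 to 18.3 and 23.7 to 34.0 cpm on the CD (log2 fold change −1.0, SE 0.400, FDR 0.408). The libraries did not overlap on either diet, and neither difference passed the test. Tlr11, its partner, was at 0.262 to 8.36 cpm in CD45hi and at 0.455 to 2.95 cpm in CD45lo libraries and overlapped on both diets (FDR 0.360 and 0.544).

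The genes with the levels most like those of Tlr8 over the 15 libraries, by Pearson correlation of log2 cpm with a prior count of 2, were Mndal (r = 0.990), Ifitm3 (r = 0.989) and Cd97 (r = 0.988). They were at 206, 421 and 452 cpm on average over the CD45hi libraries and at 5.79, 27.5 and 13 cpm over the CD45lo libraries. For Tlr3 they were Slc2a5 (r = 0.971), Lrrc3 and Sparc (r = 0.961 each), all with lower means in CD45hi cells (98.5, 201 and 1724 cpm) than in CD45lo cells (300.5, 475 and 3540 cpm). For Tlr2 they were Dnah12 (r = 0.945), Myo1g and Art2a-ps (r = 0.934 each), with means of 13.4, 149.5 and 13.6 cpm in CD45hi and of 0, 49.3 and 0.00649 cpm in CD45lo cells. The log2 cpm of Dnah12 and Art2a-ps in CD45lo cells was therefore set by the prior count, and their correlations rest largely on the split by CD45 level. The points of each correlation share their libraries and the split by CD45 level, so many genes that differ between the fractions correlate in this way.

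Of 67 pathway genes in 6 lists, 64 were tested, and 11 were called higher and 0 lower in CD45hi cells on the WD and 12 higher and 0 lower on the CD, beside 4.01% and 3.39% of all genes tested that were called higher, with a median log2 fold change of 0.29 and 0.32 beside 0.00 and 0.04 over all genes. Among them were 6 and 7 of 14 tested target genes and 3 and 3 of 10 tested negative regulators. Of the 6 adaptors and the 16 kinases, ubiquitin ligases and partners, 0 were called on either diet by the 1.5-fold test, with medians of 0.11 and 0.13 on the WD and 0.09 and −0.14 on the CD. The adaptor genes Myd88 and Ticam1, which encode MyD88 and TRIF, had log2 fold changes of 0.28 (SE 0.660) and −0.06 (SE 0.490) on the WD and 0.05 (SE 0.613) and 0.16 (SE 0.453) on the CD. Without the 2 libraries that lay apart, 12 of the 64 genes were called higher and 2 lower on the WD and 13 higher and 0 lower on the CD. Of all genes tested in that fit, 4.62% were called higher and 2.41% lower on the WD, and 3.41% and 0.828% on the CD. The 2 lower genes were the adaptor gene Sarm1, with values of 1.64 to 7.20 cpm in WD CD45lo cells and of 3.20, 0 and 0 cpm in WD CD45hi cells of which the first library was left out (FDR 0.0408 against 0.742 with all libraries), and Tab3, which encodes a binding partner of the kinase TAK1, at 23.2, 5.77 and 4.6 cpm in WD CD45hi cells (log2 fold change −2.08, FDR 0.0151 against 0.498). The target gene Cxcl1 was then called higher on the WD (FDR 0.0338 against 0.0566), with values of 17.9 and 0 cpm in the 2 WD CD45hi libraries left, so that this call rests on 1 library, and 0 cpm in all 4 WD CD45lo libraries. With all libraries and without the 2, 0 of the 64 genes were called in the diet comparisons and the interaction. With all libraries, 0.254% of all genes tested were called between diets in CD45hi cells, 0% in CD45lo cells and 0.00668% in the interaction.

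Among the 10 accessory genes, 1 was called higher on both diets, beside 4.01% of all genes tested on the WD and 3.39% on the CD. This gene was Cd36, which encodes a scavenger receptor and co-receptor of TLR2. It was at 115, 179 and 117 cpm in WD CD45hi libraries and at 0.721 to 5.71 cpm in WD CD45lo libraries (37.7-fold, FDR 1.19e-05), and at 79.1 to 190.4 against 2.40 to 5.65 cpm on the CD (30.3-fold, FDR 1.61e-05). The other 9 were not called. Cd14, the co-receptor of TLR4, had CD45hi values of 147 to 247 cpm above CD45lo values of 93.4 to 125 cpm in all libraries, with log2 fold changes of 0.86 on the WD (SE 0.183, FDR 0.187) and 0.98 on the CD (SE 0.172, FDR 0.0794). Without the 2 libraries that lay apart it was called on both diets (FDR 0.0458 and 0.0446). Ly96, which encodes MD-2, and Unc93b1, which carries the endosomal receptors from the endoplasmic reticulum, had log2 fold changes of −0.47 (SE 0.399) and −0.19 (SE 0.223) on the WD and 0.50 (SE 0.367) and −0.24 (SE 0.206) on the CD.

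Of 8 transcription factor genes 1 was called higher on each diet, beside 4.01% of all genes tested on the WD and 3.39% on the CD. This gene was Irf7, which encodes the interferon regulatory factor downstream of TLR7 and TLR9. It was at 10.5, 34.0 and 61.0 cpm in WD CD45hi and at 3.07 to 5.77 cpm in WD CD45lo libraries (8.29-fold, FDR 0.00492), and 6.11-fold higher in CD45hi cells on the CD (FDR 0.0133). The NF-kappaB subunits and Irf3 and Irf5 were not called.

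The 3 negative regulators called higher on both diets, of 10 tested, inhibit NF-kappaB signalling. Of all genes tested, 4.01% on the WD and 3.39% on the CD were called higher. Tnfaip3, which encodes the ubiquitin-editing enzyme A20, was at 541 ± 140.0 cpm in CD45hi (n = 3) and 188 ± 23.6 cpm in CD45lo cells (n = 4) on the WD (2.89-fold, FDR 0.00209) and 2.78-fold higher on the CD (FDR 0.00216). Nfkbia, which encodes the inhibitor IkappaB-alpha, was 4.47-fold higher on the WD (FDR 0.000406) and 3.13-fold on the CD (FDR 0.00434). Tnip3 was at 26.9, 5.70 and 15.4 cpm in WD CD45hi libraries and at 0 to 0.329 cpm in WD CD45lo libraries (FDR 0.00855). On the CD it had 6 to 133 counts in the CD45hi libraries and 0 counts in all 4 CD45lo libraries, so that it was at least 32.5-fold higher against 3 counts per library (FDR 0.00408).

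The called target genes encode cytokines, chemokines and related products of the response. Cxcl2, a chemokine for neutrophils, was at 76.4 to 132 cpm in WD CD45hi and 0.220 to 1.97 cpm in WD CD45lo libraries (138-fold, FDR 3.13e-06), and Il1b, the cytokine interleukin 1 beta, at 483 ± 141 against 8.03 ± 1.65 cpm (60.2-fold, FDR 2.1e-07). Ptgs2, the inducible cyclooxygenase, was 62.6-fold higher on the WD (FDR 0.000742) and the interferon-induced Ifit1 was 6.01-fold higher (FDR 0.0247, and 0.0576 without the 2 libraries that lay apart). On the CD these 4 genes were 98.95-fold (Cxcl2), 58.0-fold (Il1b), 38.5-fold (Ptgs2) and 9.43-fold (Ifit1) higher. Nfkbiz and Tnf were also called on both diets and Ccl3 on the CD alone, where it was 2.41-fold higher (FDR 0.0156), with a log2 fold change of 0.90 on the WD (SE 0.220, FDR 0.198). Markers of other myeloid cells were higher in the same CD45hi libraries. On each diet 6 of 8 neutrophil, 3 of 6 classical monocyte, 6 of 6 patrolling monocyte and 6 of 6 border-associated macrophage markers were called higher. Of all genes tested, 4.01% on the WD and 3.39% on the CD were called higher. The part of these markers in the differences of the target genes was not tested.

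**Figure D4:**
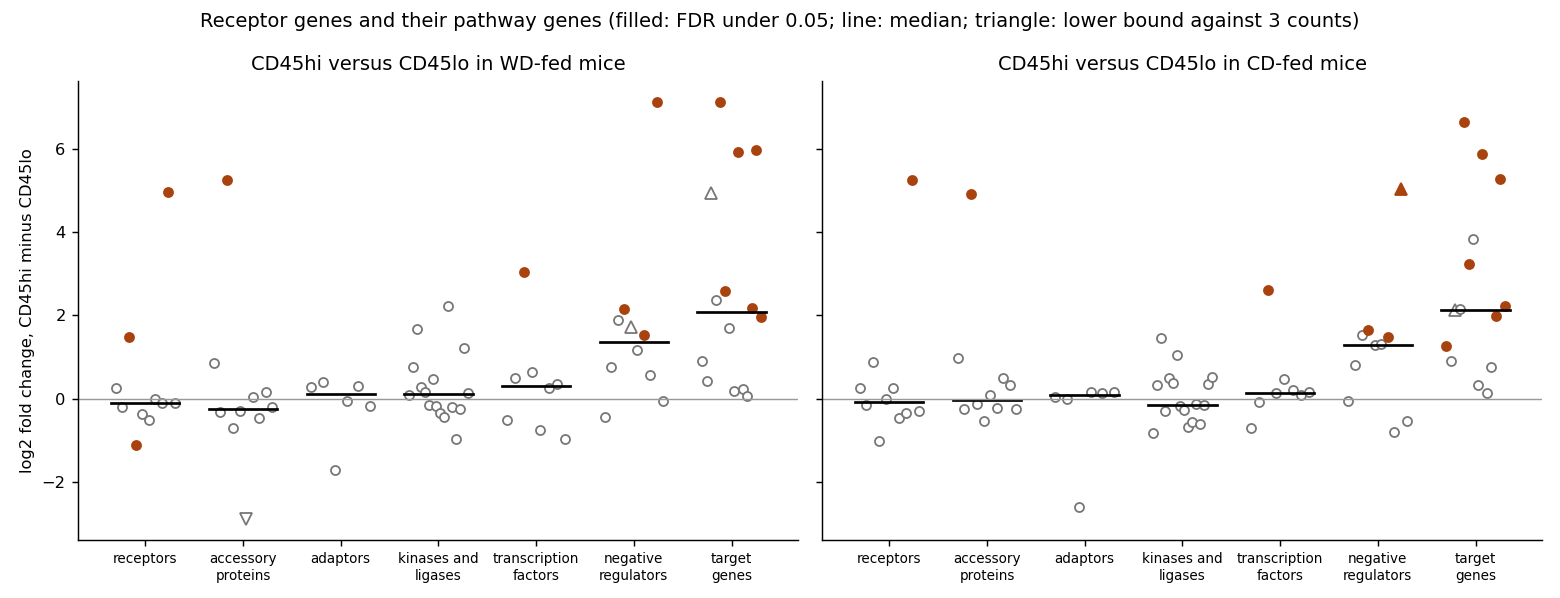
Log2 fold change between CD45hi and CD45lo cells (y axis) of the 10 receptor genes and of the 6 lists of pathway genes (x axis), 1 point per gene, in WD-fed (left) and CD-fed mice (right). Filled points have an FDR under 0.05, lines are list medians, and triangles are lower bounds for genes with at most 3 counts in every library of one fraction. Called points lie among receptors, accessory genes, transcription factors, negative regulators and targets, and the adaptors and kinases hold open points alone with all libraries in the fit.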

How the data were processed

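CD11b+ brain cells were sorted by CD45 level and their poly(A) RNA was sequenced in paired ends with a kit that does not mark strand. The authors trimmed reads below a quality limit and ran RSEM (1.2.12 per the submitters' processing notes) with Bowtie2 on mm10, at default parameters. They deposited per library an expected count per gene, not normalized, and TPM, which RSEM sets from each library's effective length of the gene. The annotation release and the instrument of each library are not given in the sources used here.

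From these files the expected counts of the 15 libraries were rounded, 14967 of 38924 genes passed a minimum of 1 cpm in 2 or more libraries, and TMM factors were computed. One edgeR fit (4.0.16 in R 4.3.3, quasi-likelihood in its earlier form) held all 4 groups, with no covariate. CD45hi and CD45lo cells were compared within a diet with glmTreat at 1.5-fold, and diets within a fraction and the interaction with glmQLFTest. An FDR (Benjamini-Hochberg, over all genes tested) under 0.05 was called. SE is the absolute log2 fold change over the square root of F. Depth was 11951412 to 17912272 counts per library, and intervals or limits from counts cover counting error only. Replicates differed by more than sampling noise (chi-square per degree of freedom of 20.6 to 135).

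The members, gene lists and tests were chosen with earlier results of these data known. The text names all members, Tlr11, Tlr12, genes of a pathway list that were called (up to the 4 highest and 4 lowest per list in WD-fed mice), and for each member called the 3 genes with the most similar levels. Cd14, Ly96, Unc93b1, Myd88 and Ticam1 were named for their role, and Nfkbiz, Tnf, Ccl3, Cxcl1, Sarm1 and Tab3 after their values were seen. Symbols came from the files, except that Chil3, absent there under this name, was found by its gene identifier. GENCODE M21, used for positions and exon lengths, lists 37607 of their identifiers. The scripts were tested on simulated data. Alternatives were DESeq2 (1.42.0), limma-voom (3.58.1), other size factors, filters, quasi-likelihood forms and samples in the fit, replicate blocks, and each library left out.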

Additional observations from a re-analysis of the deposited data

Results flagged for a closer look

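In 4 of the 30 sets of 4 libraries examined (10 genes in 3 groups), 1 library lay outside the range that Dixon's 95% limit allows for the others, and chance gives about 1 in 20. Tlr8 was at 8.01 cpm in the second WD CD45lo library against 1.12 to 2.14 cpm in the others of its group, and this library also had the highest sums of classical and patrolling monocyte markers among the WD CD45lo libraries (137 and 16.6 cpm). The border-associated macrophage sum of this library, 123 cpm, lay just under the group's highest of 124 cpm, and its neutrophil sum, 639 cpm, was the group's lowest. Tlr3 was at 197 cpm in the fourth WD CD45lo library against 232 to 239 cpm, and that library had the lowest microglia marker sum of all CD45lo libraries, 13590 cpm. Tlr6 was at 42.8 cpm in the second CD CD45lo library against 28.3 to 30.4 cpm, with counts that RSEM shared with Tlr1. Tlr5 was at 27.8 cpm in the third WD CD45lo library against 38.6 to 39.7 cpm. The causes were not tested, and each library stayed in all fits other than those that left it out.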

How the results depend on the processing

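The calls of Tlr8 on both diets and of Tlr2 on the WD held in 11 of 11 other settings and in all 15 fits without 1 library (Tlr8 log2 fold change 4.63 to 5.98 on the WD and 4.71 to 5.79 on the CD, and Tlr2 1.28 to 1.61). Tlr3 on the WD missed the threshold with DESeq2 (FDR 0.235), limma-voom (0.117), the size factors of DESeq2 (0.0649), no filter (0.0743) and both replicate blocks (0.0809 and 0.137). Of 1240 alternative values of single genes, 1222 stayed on the same side of the threshold, 15 lost a call (all of them Tlr3 on the WD), 3 gained one and 0 called values changed sign, while 95 estimates changed sign with no call on either side. On the CD, the 1 member called became 3 (2 higher, 1 lower) when the 1.5-fold limit was applied after glmQLFTest, and 1 to 2 when 1 library was left out. The members called on the WD numbered 2 to 3 without 1 library. In the diet comparisons and the interaction 0 members were called under every alternative run.

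Counts over all genes moved more. Between fractions they went from 775 (600 higher, 175 lower) to 1335 (919 and 416) on the WD and from 595 (507 and 88) to 1162 (873 and 289) on the CD with glmQLFTest and the later limit, and without 1 library they ran from 513 (the third WD CD45lo library) to 920 on the WD and from 412 to 705 on the CD. WD against CD in CD45hi cells gave 38 genes, 1030 with DESeq2, 252 with the edgeR 4 form, 0 with the 2 groups alone, 290 without the 2 libraries that lay apart, and 1 to 286 without 1 library (the second WD CD45lo and the second WD CD45hi library). In CD45lo cells it gave 0, and 4 with DESeq2. The interaction gave 1, 188 with DESeq2, 0 with limma-voom and the edgeR 4 form, 3 without the 2 libraries that lay apart, and 0 to 6 without 1 library. The causes were not tested.

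The numbers in the titles, and those that start the file names, were each tried as a pairing. Deviations of same-numbered CD45hi and CD45lo libraries from their group means correlated at −0.0217 to 0.0695. The fractions are different cells, so a low correlation cannot decide whether 2 libraries came from the same animal. With the replicate block by title, set within each diet, 398 genes were called between fractions on the WD and 0 in the interaction. With the replicate block by file name 353 genes were called between fractions on the WD and 0 in the interaction. For the diet comparisons the block was the title number alone, and 2 genes were called in CD45hi cells. That block joined CD and WD libraries, which came from different mice, so it is not a pairing by animal. The mean endosomal share of the members in CD CD45lo cells was 73.67% in TPM and 75.58% per exon length. With 3 or 4 libraries a group and SE up to 0.605 in the diet comparison of CD45lo cells, small changes of the lower genes were not detectable.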
